A study of Caenorhabditis elegans with 8 samples.

Results

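Whole young adult Caenorhabditis elegans of the strain glp-1 (e2141), fed a mock RNA interference control, were compared with N2 worms, the laboratory wild type, fed the same control. All genes that passed a filter on low counts were described, 15321 of the 20182 genes in the deposited table. The group called glp-1 mock held 2 libraries of glp-1 (e2141) animals raised at 25 °C, which the labels call restrictive. The group called N2 mock held 2 libraries of N2 animals, for which the labels state no temperature, so that the strain and the growth at 25 °C cannot be told apart. Larvae of both strains were hatched in buffer after bleaching and placed on plates of the feeding control at the first larval stage, and total RNA was taken from young adults. A second pair of groups, glp-1 rege-1 RNAi and N2 rege-1 RNAi with 2 libraries each, received RNA interference by feeding against rege-1, a gene that encodes an RNase, and served here as further libraries of the same strains. The labels do not say that the libraries of a group came from separate cultures, so the p-values rest on library-to-library spread, part or all of which may be technical. The mRNA counts of a library summed to 30093967 and 29001469 in glp-1 mock, and to 29550649 and 26127079 in N2 mock.

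GLP-1 is a Notch receptor of the germline. A ligand from the distal end of the somatic gonad activates it, which keeps germline stem cells dividing and out of meiosis. The e2141 allele carries an amino acid substitution that makes the receptor fail in the heat, and animals raised so from hatching are known for having very few germ cells. Loss of the germline is also known to extend the life of the worm and to alter fat and yolk metabolism through the steroid receptor DAF-12 and the FOXO factor DAF-16.

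Levels below are in CPM, the counts of a gene scaled to a common library total after TMM normalization. Differences are log2 values, glp-1 minus N2, with their standard error (SE). A gene was called where the adjusted p of edgeR's quasi-likelihood test, corrected by Benjamini-Hochberg over all 15321 genes, was under 0.05. The call was higher for 995 genes, or 6.49% of those tested, and lower for 496, or 3.24%. With library size as the only scaling, 1478 were higher and 269 lower, and the median of all genes moved to 0.13 from 0.00 on the log2 scale. In a test against a change of 2-fold, 250 (1.63%) were higher and 41 (0.268%) lower. Without one of the mock libraries its group holds 1, which is then taken to vary like the other groups. Under that condition 303 of the 995 and 54 of the 496 kept their call whichever mock library was left out.

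The higher and the lower genes differed in level and in coding length. Those called higher had a median difference of 1.29, a median level of 6.46 CPM in glp-1 mock and 2.4 CPM in N2 mock, and a median coding length of 906 bases. Together they took 3.24 and 3.24% of the counts of the glp-1 mock libraries, against 1.29 and 1.37% of those of N2 mock. Those called lower had a median difference of -0.71, a median level of 32.2 CPM in glp-1 mock and 51.2 CPM in N2 mock, and a median coding length of 1500 bases, where all tested genes had 1095. They took 4.62 and 4.76% of the counts in glp-1 mock, against 6.97 and 7.18% in N2 mock. Over all tested genes the log2 difference fell with coding length (Spearman rho -0.26). With that trend removed, 1022 genes were called higher and 701 lower, and 93.8 and 84.1% of the main calls were kept. By chromosome, the share of tested genes called higher was 9.44% on V, 7.81% on IV, 7.72% on II, 5.22% on I, 4.24% on X and 4.03% on III, while the share called lower ranged from 2.43% on X to 3.61% on I.

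**Figure D1:**
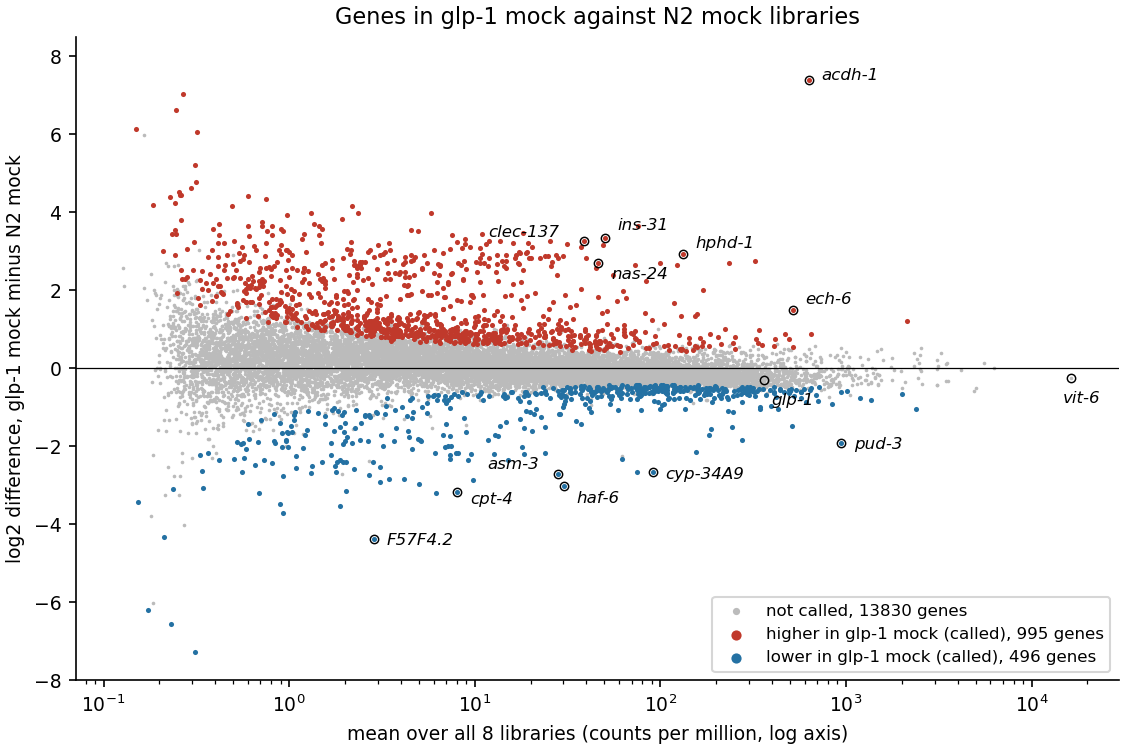
Each point is 1 of the 15321 tested genes, with its mean over all 8 libraries in CPM on a log axis and its log2 difference, glp-1 mock minus N2 mock; red and blue points were called higher (995) and lower (496). The gene acdh-1 stands alone at 7.40 among genes of high level, and most of the genes called lower lie close below 0.

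Germline transcripts were present at close to N2 levels in the libraries labelled glp-1, which goes against the loss of germ cells that the strain and temperature on the labels would give. The groups are therefore named by their labels throughout. The glp-1 gene itself (WBGene00001609, chromosome III) had 323 and 334 CPM in glp-1 mock and 466 and 338 CPM in N2 mock, where replicate 2 lay close to the glp-1 mock libraries (log2 -0.29, SE 0.22, adjusted p = 0.44). As e2141 changes the protein, the level of this mRNA does not check the label. Its partner in the switch to meiosis, gld-1, which encodes a translational repressor, had 178 and 181 CPM in glp-1 mock and 227 and 229 CPM in N2 mock (log2 -0.35, adjusted p = 0.108). The eggshell gene cbd-1 had 1673 and 1775 CPM in glp-1 mock, against 2557 and 1869 CPM in N2 mock (log2 -0.36, adjusted p = 0.206). The eggshell proteoglycan gene cpg-2 had 905 and 911 CPM in glp-1 mock, against 1239.8 and 974 CPM in N2 mock (log2 -0.29, adjusted p = 0.262).

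The lists of germline genes were shifted down by a small amount, with few calls. Some housekeeping lists had medians of similar size, with proteasome genes at -0.26, translation factor genes at -0.32 and mitochondrial ribosomal protein genes at -0.16. Others, such as proton pump genes (-0.02), did not. Of 16 stem cell and meiotic switch genes 0 were called by edgeR, with a median of -0.27 beside 0.00 for all tested genes; 5 were lower and 0 higher at an unadjusted p under 0.05, and DESeq2 called 2 lower. Of 46 meiotic chromosome genes 1 was called lower, the synaptonemal complex gene syp-4 (log2 -0.66, adjusted p = 0.0297), and the median was -0.19, but that call ended whichever mock library was left out. The count was 1 of 36 for oocyte and eggshell genes (median -0.21) and 2 of 77 for DNA replication and cell cycle genes (median -0.21), with 0 higher in these lists. The count of 2 was 0 without glp-1 mock replicate 1, glp-1 mock replicate 2 or N2 mock replicate 1, and the count of 1 was 0 without either glp-1 mock library and 2 without N2 mock replicate 2. Both glp-1 mock libraries lay below both N2 mock libraries for 24 of the 46 meiotic genes, 19 of the 36 oocyte genes and 52 of the 77 replication genes, where 30.3% of all tested genes did so. Oocyte and eggshell genes took 1.1 and 1.11% of the counts in glp-1 mock and 1.28 and 1.07% in N2 mock. In RNA of whole worms, fewer cells of a type and less RNA per cell cannot be told apart.

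P granule genes were the germline list with the most lower calls. P granules are the RNA-rich bodies of germ cells, and the GLH helicases are among their core proteins. Of 27 genes of this list, all tested, 5 were called lower and 0 higher, with a median of -0.30. The share called lower was 18.5%, beside 3.24% of all tested genes. The helicase gene glh-1 (WBGene00001598) had 158 and 162 CPM in glp-1 mock, against 334 and 350.4 CPM in N2 mock (log2 -1.09, SE 0.15, adjusted p = 0.001). Its neighbour in sequence and on chromosome I, glh-2, had 49.4 and 52.9 CPM in glp-1 mock, against 112 and 105 CPM in N2 mock (log2 -1.08, SE 0.15, adjusted p = 0.0011). Each of the pair was below N2 by about the same factor in both libraries, and since their sequences are similar, reads may have been divided between them. Both calls held whichever mock library was left out, whereas those on glh-4 (log2 -0.64), cgh-1 (-0.60) and pgl-1 (-0.49) were near the threshold, and the count of 5 was 2 without glp-1 mock replicate 1, glp-1 mock replicate 2 or N2 mock replicate 1. Among 19 Argonaute genes, which bind small RNAs, wago-4 (log2 -0.64), alg-2 (-0.57) and ergo-1 (-0.49) were called lower and alg-4 (0.83) higher. The calls on alg-2 and ergo-1 ended whichever mock library was left out, that on wago-4 held only without N2 mock replicate 2 (adjusted p = 0.0282), and that on alg-4 only without N2 mock replicate 1 (0.0385).

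Sperm genes were shifted the other way. Sperm are made in the late larval gonad of the hermaphrodite and throughout the adult life of males. Of 59 listed sperm genes other than major sperm proteins, 50 were tested, 13 were called higher and 0 lower, and the median was 0.61. The share called higher was 26%, beside 6.49% of all tested genes. Both glp-1 mock libraries lay above both N2 mock libraries for 41 of the 50, where 32.6% of all tested genes did so. The protease gene try-5, whose product is a component of male seminal fluid, had 4.25 and 5.94 CPM in glp-1 mock, against 1.65 and 1.17 CPM in N2 mock (log2 1.85, SE 0.26, adjusted p = 0.001). The gene fer-1, which encodes a ferlin needed for membrane fusion in sperm, had 13.4 and 14 CPM in glp-1 mock, against 7.88 and 5.29 CPM in N2 mock (log2 1.05, adjusted p = 0.0135). That on fer-1 held only without N2 mock replicate 1 (0.022). The call on try-5 held whichever mock library was left out, while the 13 higher calls became 1 without glp-1 mock replicate 1 or N2 mock replicate 2, 2 without glp-1 mock replicate 2 and 8 without N2 mock replicate 1. Of the 12 major sperm protein genes tested of 30 in the table, 0 were called by edgeR, 4 were higher at an unadjusted p under 0.05, DESeq2 called 2 higher, and the median was 0.55. These genes are near-identical copies among which reads may be shared. All 30 together, tested or not, took 0.00275 and 0.00268% of the counts in glp-1 mock and 0.00174 and 0.00125% in N2 mock.

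Genes known for their expression in male-specific sensory neurons were also higher, a set gathered after these values had been seen. The polycystin genes lov-1 and pkd-2 act in those neurons in mate searching and vulva location. The level of lov-1 was 3.44 and 3.44 CPM in glp-1 mock, against 0.456 and 0.506 CPM in N2 mock (log2 2.83, adjusted p = 0.000263). That of pkd-2 was 1.98 and 1.98 CPM in glp-1 mock, against 0.35 and 0.311 CPM in N2 mock (log2 2.56, adjusted p = 0.00129). Of 10 such genes, the 8 called higher were lov-1, pkd-2, cwp-1, cwp-2, cwp-3, cwp-4, cwp-5 and trf-1, while klp-6 (log2 0.10) and cil-7 (0.63) did not pass. The calls on lov-1, pkd-2 and cwp-2 held whichever mock library was left out, and those on the other 5 did not. Summed over the 10, the level was 14.5 and 13.7 CPM in glp-1 mock, against 4.21 and 4.09 CPM in N2 mock. The same sum was 12.9 and 13.3 CPM in glp-1 rege-1 RNAi, against 3.68 and 4.22 CPM in N2 rege-1 RNAi. The labels give no sex, and the part of these transcripts in the sperm gene result and in the families described next was not tested.

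**Figure D2:**
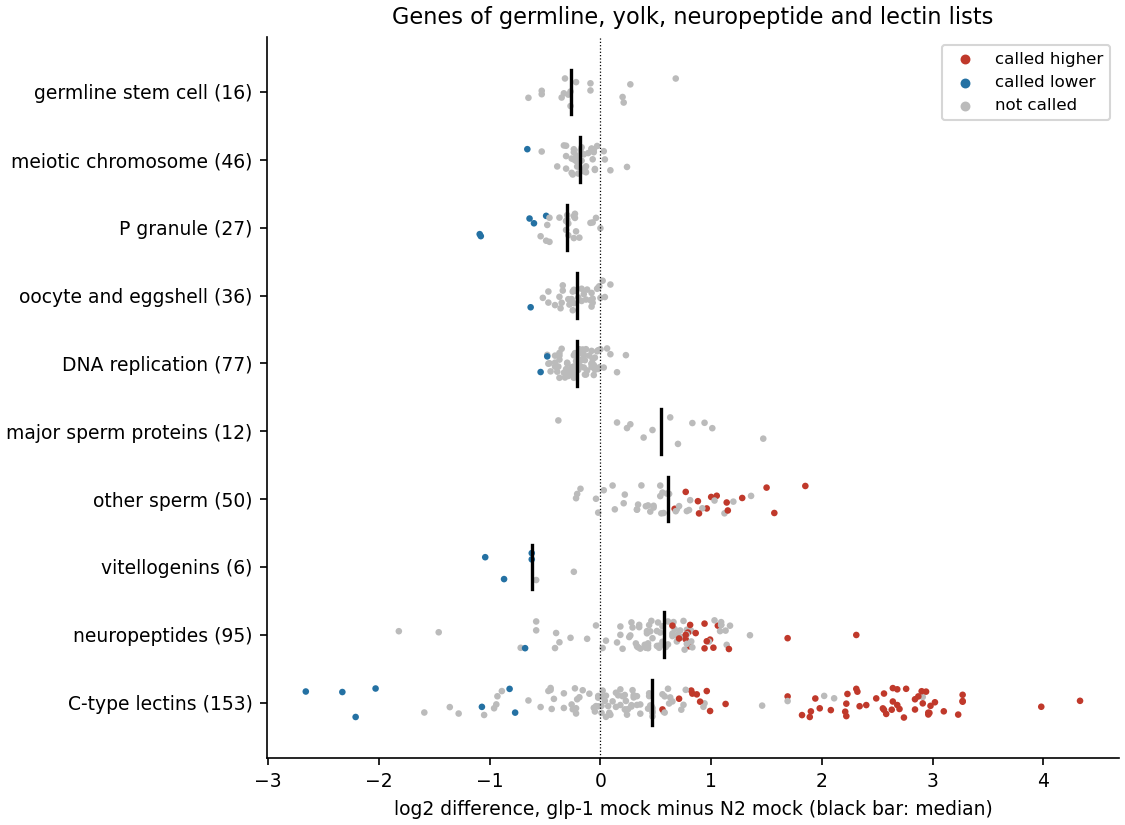
Each point is 1 tested gene of the list named at the left, with the number tested in brackets, placed by its log2 difference, glp-1 mock minus N2 mock; black bars are medians and colours give the calls. The 5 lists of germline proliferation, meiosis and oocytes have medians between -0.30 and -0.19, the sperm, neuropeptide and C-type lectin lists between 0.47 and 0.61.

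The difference of greatest size at a substantial level was in the propionate shunt. Propionate, a product of the breakdown of branched-chain amino acids and odd-chain fatty acids, is normally carboxylated and turned into succinyl-CoA by a route that needs vitamin B12. The shunt is a B12-independent route by way of acrylyl-CoA, and acdh-1, its first enzyme, is widely used as a reporter of the worm's B12 status. The acyl-CoA dehydrogenase gene acdh-1 (WBGene00016943, chromosome I) had 1399 and 1378 CPM in glp-1 mock, against 6.1 and 10.3 CPM in N2 mock (log2 7.40, SE 0.29, adjusted p = 3.17e-07), which is 169-fold. The transhydrogenase gene hphd-1, which acts on 3-hydroxypropionate, had 234 and 249 CPM in glp-1 mock, against 33.3 and 30.3 CPM in N2 mock (log2 2.93, SE 0.14, adjusted p = 6.52e-07). The enoyl-CoA hydratase gene ech-6 had 739 and 760.3 CPM in glp-1 mock, against 291 and 239 CPM in N2 mock (log2 1.5, SE 0.15, adjusted p = 9.49e-05). For these 3 enzymes the groups were far apart, and their calls held whichever mock library was left out.

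The other enzymes and the regulators of the shunt differed less. The hydrolase gene hach-1 had 176 and 173 CPM in glp-1 mock, against 114 and 88.5 CPM in N2 mock (log2 0.78, adjusted p = 0.00915). The last enzyme, the semialdehyde dehydrogenase gene alh-8, had 362 and 383 CPM in glp-1 mock, against 236 and 295 CPM in N2 mock, which did not pass (log2 0.49, adjusted p = 0.0725). The nuclear hormone receptor gene nhr-68, whose product activates the shunt genes when propionate persists, had 43.9 and 44.6 CPM in glp-1 mock, against 25.5 and 28.4 CPM in N2 mock (log2 0.72, adjusted p = 0.0112). Its partner in that circuit, nhr-10, had 23.8 and 22.9 CPM in glp-1 mock and 20.8 and 23.7 CPM in N2 mock (log2 0.07, adjusted p = 0.825). The call on hach-1 held only without N2 mock replicate 1 (adjusted p = 0.0181) and that on nhr-68 only without N2 mock replicate 2 (0.0392); without the other mock libraries they had adjusted p from 0.0611 to 0.0811 for hach-1 and from 0.0866 to 0.098 for nhr-68.

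The 4 enzymes of the B12-dependent route did not pass. The carboxylase subunit gene pcca-1 had 305 and 321 CPM in glp-1 mock and 394 and 355 CPM in N2 mock (log2 -0.26, adjusted p = 0.26), and pccb-1 had 322 and 336 CPM in glp-1 mock and 321 and 318 CPM in N2 mock (log2 0.04). The epimerase gene mce-1 (log2 0.12) and the mutase gene mmcm-1 (-0.18) lay as near to 0. The B12-dependent methionine synthase gene metr-1 was at -0.03. Over the 22 genes of propionate and branched-chain breakdown that were tested, 5 were called higher and 0 lower, and 17 did not pass. The share called higher was 22.7%, beside 6.49% of all tested genes. Without either glp-1 mock library the 5 were 3, and without either N2 mock library 4.

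**Figure D3:**
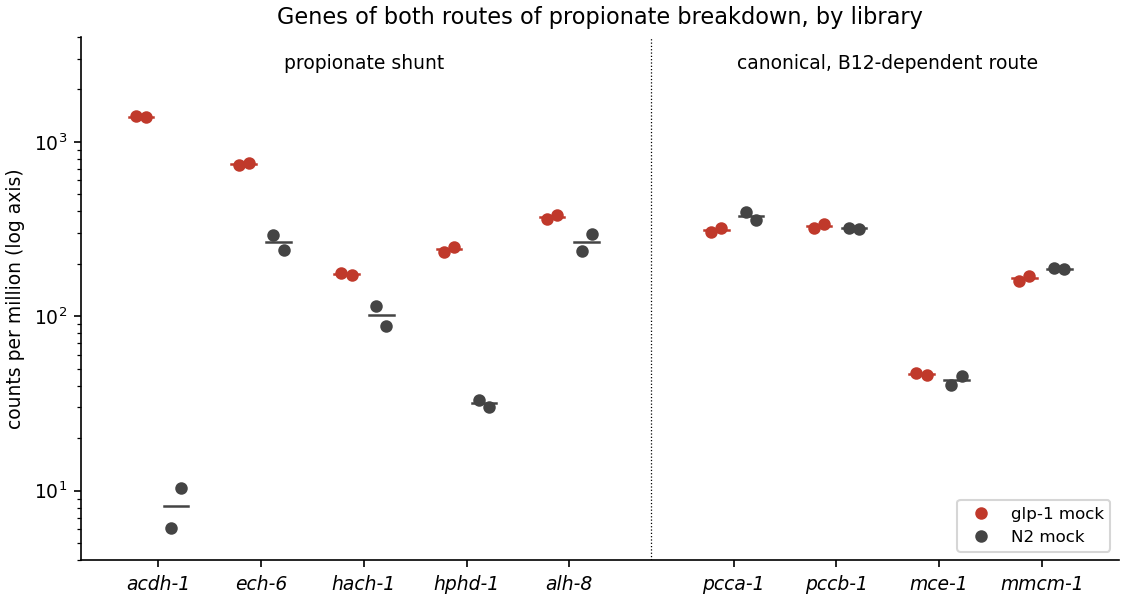
Points are single libraries in CPM on a log axis, glp-1 mock in red left of N2 mock in grey, and bars are means of 2 libraries, for 5 genes of the propionate shunt and 4 of the B12-dependent route. The level of acdh-1 is at least 1378 CPM in both glp-1 mock libraries and at most 10.3 CPM in both N2 mock libraries, while the groups lie close together for pccb-1 and mce-1.

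Carnitine, peroxisomal and desaturase genes were among the lipid genes that changed, in both directions. Of the fatty acid synthesis and desaturation genes 25.9% were called higher, beside 6.49% of all tested genes. Of 27 fatty acid synthesis and desaturation genes 7 were called higher and 0 lower (median 0.25), a count that was 2 to 4 without any one of the mock libraries. The palmitoyl-CoA desaturase gene fat-5 had 46.5 and 49.9 CPM in glp-1 mock, against 11.7 and 6.49 CPM in N2 mock (log2 2.40, SE 0.24, adjusted p = 7.78e-05). The stearoyl-CoA desaturase gene fat-7 had 18.1 and 14.8 CPM in glp-1 mock, against 4.7 and 4.32 CPM in N2 mock (log2 1.87, adjusted p = 0.0019). Its close relative fat-6, which makes the same product, had 488 and 467 CPM in glp-1 mock, against 236 and 328 CPM in N2 mock (log2 0.76, adjusted p = 0.0261), a call that held only without N2 mock replicate 2 (0.0259). The elongase genes elo-5 (log2 0.35) and elo-6 (0.49), which make branched-chain fatty acids, did not pass, nor did the acetyl-CoA carboxylase gene pod-2 (-0.02) and the fatty acid synthase gene fasn-1 (-0.36).

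Among 19 genes of beta-oxidation and carnitine transfer, 4 were higher and 2 lower, or 4 and 1 without any one of the mock libraries. With all libraries the shares were 21.1% higher and 10.5% lower, beside 6.49 and 3.24% of all tested genes. The trifunctional protein gene ech-1.1 had 24.7 and 24.5 CPM in glp-1 mock, against 6.73 and 6.18 CPM in N2 mock (log2 1.93, adjusted p = 1.28e-05). The hydroxyacyl-CoA dehydrogenase gene hacd-1 had 125 and 124 CPM in glp-1 mock, against 50 and 45.2 CPM in N2 mock (log2 1.39, adjusted p = 8.87e-05). Members of the carnitine palmitoyltransferase family went apart. The gene cpt-3 was higher (log2 1.87), with 5.7 and 7.01 CPM in glp-1 mock, against 1.82 and 1.63 CPM in N2 mock. The gene cpt-4 was lower, with 1.83 and 2.24 CPM in glp-1 mock, against 16.2 and 20.5 CPM in N2 mock (log2 -3.17, SE 0.26, adjusted p = 1.7e-05). The mitochondrial enzyme gene cpt-1 did not pass (log2 -0.40, adjusted p = 0.0943). The peroxisomal ABC transporter gene pmp-5 had 119.8 and 119.8 CPM in glp-1 mock, against 32.5 and 28.5 CPM in N2 mock (log2 1.97, adjusted p = 5.52e-06).

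Genes of lysosomal lipid breakdown went in both directions. The lysosomal lipase gene lipl-1 had 4.93 and 5.23 CPM in glp-1 mock, against 23.4 and 21.5 CPM in N2 mock (log2 -2.15, SE 0.17, adjusted p = 1.36e-05). The acid sphingomyelinase gene asm-3 had 12.5 and 13.2 CPM in glp-1 mock, against 95.6 and 71.4 CPM in N2 mock (log2 -2.70, SE 0.21, adjusted p = 1.11e-05). The glucosylceramidase gene gba-2 was lower as well (log2 -1.86, adjusted p = 0.00172), and the ceramide glucosyltransferase gene cgt-1 was higher (log2 1.2, adjusted p = 0.00915), a call that ended without glp-1 mock replicate 1 (0.0904), N2 mock replicate 1 (0.0839) or N2 mock replicate 2 (0.0501). A second lysosomal lipase gene, lipl-2, was lower by less (log2 -0.59, adjusted p = 0.0204), and its call ended whichever mock library was left out. The related genes lipl-3 (log2 1.69, adjusted p = 0.0294) and lipl-6 (1.18, adjusted p = 0.0467) were higher, at levels of at most 1.56 CPM, and these calls too ended whichever mock library was left out, while the abundant lipl-5 did not pass (0.13). Over 27 triglyceride, lipid droplet and lipase genes 3 were higher and 2 lower, and over 27 sphingolipid genes 2 were higher and 3 lower. The shares higher were 11.1 and 7.41%, beside 6.49% of all tested genes. The shares lower were 7.41 and 11.1%, beside 3.24%. Without any one of the mock libraries the lipase list had 0 or 1 higher and 1 lower, and the sphingolipid list 0 or 1 higher and 2 or 3 lower.

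Yolk protein genes were lower in part, by values that rested on single libraries. Vitellogenins are made in the intestine of the adult hermaphrodite and taken up by oocytes. Levels of vit-1 were 2165 and 2227 CPM in glp-1 mock, against 3275 and 5731 CPM in N2 mock (log2 -1.04, SE 0.25, adjusted p = 0.0237). The other calls were vit-3 (log2 -0.87, adjusted p = 0.0131), vit-5 (-0.62, 0.0439) and vit-4 (-0.62, 0.0468). Of the remaining members, vit-2 had 3752 and 3707 CPM in glp-1 mock and 3816 and 7308 CPM in N2 mock (log2 -0.58, adjusted p = 0.255), and vit-6 had 14231 and 14988 CPM in glp-1 mock, on both sides of which lay N2 mock with 12949.6 and 21491 CPM (log2 -0.24, adjusted p = 0.545). N2 mock replicate 2 was the higher N2 library for all 6 genes, and the count of 4 lower calls was 0 without it, 0 without either glp-1 mock library and 4 without N2 mock replicate 1. Several vitellogenin genes are near-identical, so that reads may be shared among them.

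Central carbon metabolism did not stand out. Of 23 glycolysis and gluconeogenesis genes 0 were called by edgeR or DESeq2 (median 0.00), with 2 higher and 0 lower at an unadjusted p under 0.05. Of 28 genes of the TCA and glyoxylate cycles 0 were called by either tool (median -0.09), with 1 higher and 3 lower at an unadjusted p under 0.05; with library size as the only scaling their median was 0.04. Of 29 autophagy genes edgeR called 0 and DESeq2 1 lower, with 1 higher and 3 lower at an unadjusted p under 0.05. Of 52 respiratory chain and ATP synthase genes, the adenine nucleotide translocase genes ant-1.3 (log2 1.05) and ant-1.4 (1.11) were higher and cox-15 (-0.50) and ucr-2.3 (-0.42) lower, and none of these 4 calls held whichever mock library was left out. In one-carbon metabolism, the choline kinase gene ckb-2 was lower, with 13.3 and 11.9 CPM in glp-1 mock, against 23.8 and 28.4 CPM in N2 mock (log2 -1.05, adjusted p = 0.00224), a call that ended without glp-1 mock replicate 2 (0.054). The phosphoethanolamine methyltransferase gene pmt-1 was higher (log2 0.57, adjusted p = 0.0298), a call that ended whichever mock library was left out.

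**Figure D4:**
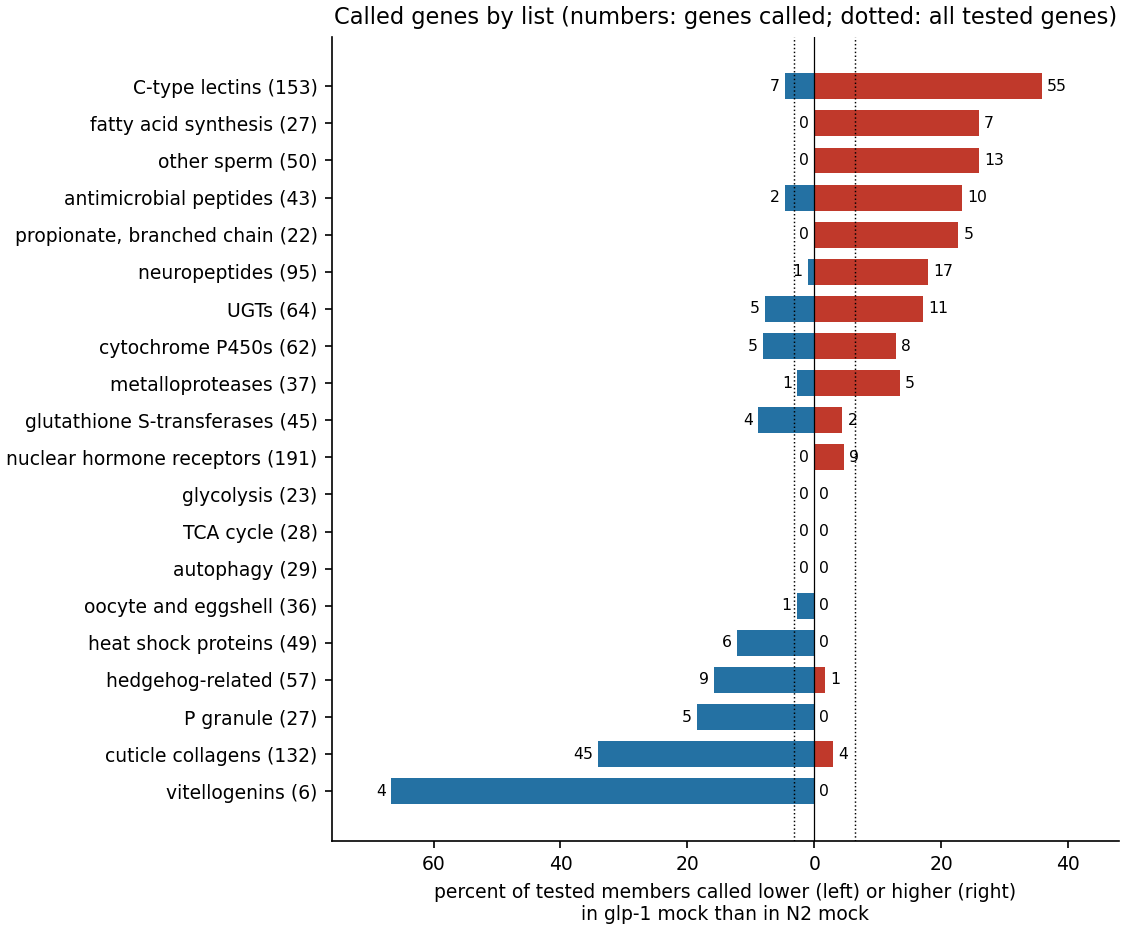
Bars give the percentage of the tested genes of each list (their number in brackets) called lower, to the left in blue, or higher, to the right in red, in glp-1 mock than in N2 mock, with the number of genes at the end of each bar and dotted lines at 3.24 and 6.49% for all tested genes. C-type lectins have the most higher calls (55 of 153), cuticle collagens the most lower calls (45 of 132).

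C-type lectins were the family with the most genes called higher. These secreted or membrane proteins with sugar-binding domains are known in the worm from the response to bacteria. Of 240 genes listed, 153 were tested, of which 55 were higher and 7 lower, with a median of 0.47 and an upper quartile of 2.22. These shares were 35.9 and 4.58%, beside 6.49 and 3.24% of all tested genes. The 55 were 40 to 46 and the 7 were 2 to 6 without any one of the mock libraries. The gene clec-137 had 68.6 and 75.1 CPM in glp-1 mock, against 8.02 and 6.81 CPM in N2 mock (log2 3.27, SE 0.15, adjusted p = 6.52e-07). The gene clec-134 had 11.4 and 11.5 CPM in glp-1 mock, against 0.561 and 0.894 CPM in N2 mock (log2 3.98, SE 0.33, adjusted p = 1.92e-05). On the lower side, clec-218 had 8.46 and 8.86 CPM in glp-1 mock, against 39.2 and 40.8 CPM in N2 mock (log2 -2.21, adjusted p = 1.92e-05). The 2 lectin genes of highest level, clec-63 (log2 0.44, adjusted p = 0.206) and clec-50 (0.28, adjusted p = 0.304), did not pass. Members of this family can resemble each other closely, and reads may be shared.

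Several smaller families and the genes named after some clones also held many genes called higher. Among symbol families with at least 8 tested genes, a description made after the values were seen, the highest share of higher calls was in srlf (12 of 21, with 1 lower) and scl (9 of 16, with 2 lower), the second of which encodes secreted proteins of the CAP superfamily. The gene srlf-18 had 56.3 and 55.2 CPM in glp-1 mock, against 6.83 and 5.37 CPM in N2 mock (log2 3.19). The largest scl difference at 5 CPM or more was scl-15, with 28.6 and 37.1 CPM in glp-1 mock, against 3.05 and 2.88 CPM in N2 mock (log2 3.47, adjusted p = 8.51e-06). Next was the trypsin-like protease family try, with 5 of 13 higher and 0 lower. Of 13 genes of the clone C16C8 on chromosome II, 9 were higher and 0 lower, with log2 values from 0.78 to 4.16, among them C16C8.19 (3.52, adjusted p = 8.51e-06). Other clones with 0 lower were F09C6 (5 of 6 tested genes higher), ZK1290 (5 of 7) and C01G10 (5 of 10). Of all tested genes 6.49% were higher, but these clones were picked for holding at least 5 calls. Of 43 antimicrobial peptide genes 10 were higher and 2 lower, while the median was 0.05. The fungus-induced peptide genes fip-3 (log2 2.91, adjusted p = 8.6e-05) and fipr-28 (2.54, adjusted p = 9.87e-05) were higher, and the abundant nlp-27 was not called (-0.27, adjusted p = 0.474).

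Peptide signals and secreted proteases added to the higher genes. The insulin-like peptide gene ins-31 had 85.4 and 92.6 CPM in glp-1 mock, against 9.46 and 8.13 CPM in N2 mock (log2 3.34, SE 0.19, adjusted p = 1.41e-06). Of 22 insulin-like genes tested of 39 in the table, the other one called was ins-27 (log2 1.22, adjusted p = 0.00852), a call that ended without glp-1 mock replicate 1 (0.0995) or N2 mock replicate 1 (0.0791). The share of insulin-like genes called higher was 9.09%, beside 6.49% of all tested genes. Neuropeptide genes had a median of 0.57, and 17 of 95 (17.9%) were higher and 1 (1.05%) lower. Among them flp-23 had 2.26 and 1.79 CPM in glp-1 mock, against 0.456 and 0.35 CPM in N2 mock (log2 2.31, adjusted p = 0.00124), and nlp-40, an intestinal peptide of the defecation rhythm, had 135 and 131 CPM in glp-1 mock, against 83.1 and 72.8 CPM in N2 mock (log2 0.77, adjusted p = 0.00652). The call on flp-23 held whichever mock library was left out, and that on nlp-40 only without N2 mock replicate 1 (0.0312). The 17 higher calls became 2 to 6 on leaving out any one of the mock libraries, with the 6 obtained without N2 mock replicate 1. General neuron markers had a median of 0.16 and 2 of 36 higher, rab-3 (0.93) and egl-21 (0.64), neither of which held whichever mock library was left out. For neuron markers the share of higher calls was 5.56%, below the 6.49% of all tested genes. These markers took 0.0968 and 0.0933% of counts in glp-1 mock, against 0.0835 and 0.0807% in N2 mock. Astacin protease genes nas-24 (log2 2.71), nas-17 (2.84) and nas-19 (2.28) were higher, and nas-24 had 86.2 and 86.3 CPM in glp-1 mock, against 13.2 and 13.2 CPM in N2 mock (adjusted p = 6.52e-07).

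Detoxification families held genes called in both directions. Cytochrome P450 enzymes and UDP-glucuronosyltransferases carry out the oxidizing and the conjugating step. Called higher and lower were 12.9 and 8.06% of P450 genes and 17.2 and 7.81% of UDP-glucuronosyltransferase genes. For glutathione S-transferase genes the shares were 4.44 and 8.89%, and for all tested genes 6.49 and 3.24%. Of 62 P450 genes 8 were higher and 5 lower, and the 5 lower calls held in number whichever mock library was left out, while the 8 fell to between 1 and 3. The gene cyp-34A9 on chromosome V had 37.7 and 39.1 CPM in glp-1 mock, against 251 and 239 CPM in N2 mock (log2 -2.67, SE 0.12, adjusted p = 6.52e-07). Genes of the same cluster, cyp-34A10 (log2 -2.85) and cyp-34A7 (-2.40), were lower too. The more abundant cyp-13A6 had 318 and 322 CPM in glp-1 mock, against 902 and 893 CPM in N2 mock (log2 -1.49, adjusted p = 0.000697). Of 64 UDP-glucuronosyltransferase genes 11 were higher and 5 lower, with ugt-66 at 1.89 and ugt-43 at 1.69, and with ugt-61 at 132 and 145 CPM in glp-1 mock, against 417 and 363 CPM in N2 mock (log2 -1.50, adjusted p = 7.78e-05). Without any one of the mock libraries the 11 became 3 to 6 and the 5 became 1 to 3. Of 45 glutathione S-transferase genes 2 were higher and 4 lower, among them gst-20 (log2 -1.17) and gst-5 (-1.1), and these counts were 0 to 2 and 2 to 4 without any one of the mock libraries.

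The ABC transporter gene haf-6, known for a role in the uptake or action of interfering RNA, was lower by more than any other transporter of its list. It had 6.94 and 7.11 CPM in glp-1 mock, against 61.4 and 53.6 CPM in N2 mock (log2 -3.03, SE 0.15, adjusted p = 6.52e-07). In the intron table it had 61 and 54 counts in glp-1 mock and 48 and 40 counts in N2 mock (log2 0.07, SE 0.30, adjusted p = 0.955). Of the metal handling genes, the heme transport gene hrg-2 had 44.8 and 49.1 CPM in glp-1 mock, against 12.2 and 10.9 CPM in N2 mock (log2 2.03, adjusted p = 8.51e-06). The ferritin genes ftn-1 (log2 -1.39) and ftn-2 (-0.62) and the cadmium-responsive gene cdr-1 (-1.16) were lower. Leaving out either glp-1 mock library ended the call on ftn-1 (adjusted p = 0.0518 and 0.052), and that on ftn-2 held only without N2 mock replicate 2 (0.0299).

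Cuticle collagen genes were the family with the most lower calls, all of them on genes with a mean below 100 CPM. The cuticle of the worm is built from many short collagens that are transcribed in waves before each molt. Of 177 genes listed, 132 were tested, of which 45 were called lower and 4 higher, with a median of -0.44. The share called lower was 34.1%, beside 3.24% of all tested genes, and the share called higher 3.03%, beside 6.49%. Divided by their mean over all 8 libraries, a split made after the values were seen, 34 of 80 genes under 10 CPM and 11 of 26 genes between 10 and 100 CPM were lower. Of the 26 genes over 100 CPM 0 were lower and 1 was higher, and their median was 0.03. Summed over the 80 genes under 10 CPM, the glp-1 mock libraries had 132 and 96.1 CPM, against 356 and 232 CPM in N2 mock. The gene lon-3, a regulator of body length, had 1.18 and 0.682 CPM in glp-1 mock, against 8.69 and 5.95 CPM in N2 mock (log2 -2.97, SE 0.35, adjusted p = 0.000287). The gene col-180 had 7.9 and 7.21 CPM in glp-1 mock, against 23.6 and 19 CPM in N2 mock (log2 -1.49, adjusted p = 0.000216).

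The most abundant collagens did not pass. The level of col-124 was 6442 and 6377 CPM in glp-1 mock and 7418 and 5269 CPM in N2 mock (log2 0.01, SE 0.21, adjusted p = 0.975), and col-119 (log2 0.13) and col-140 (0.14) likewise did not pass. The collagen gene dpy-5 had 93 and 75.8 CPM in glp-1 mock, against 35.9 and 12.7 CPM in N2 mock (log2 1.79, adjusted p = 0.01). That call ended without glp-1 mock replicate 1. All 177 listed collagen genes, tested or not, together took 5.12 and 5.12% of counts in glp-1 mock and 5.06 and 4.02% in N2 mock. The 45 lower calls were 15 without glp-1 mock replicate 2, 16 without N2 mock replicate 1, and 38 and 40 without glp-1 mock replicate 1 and N2 mock replicate 2. Members of the hedgehog-related and Patched-related families, many of them expressed in the skin around molts, were lower in 9 of 57 cases and higher in 1, with wrt-4 at -2.39 and grl-21 at -2.51. Hypodermis and seam markers had 2 lower calls of 18, rol-6 (log2 -2.59) and mlt-10 (-1.14). The share called lower was 15.8% in the hedgehog-related and Patched-related list and 11.1% among these markers, beside 3.24% of all tested genes. The count of 9 was 3 to 8 without any one of the mock libraries, and the count of 2 was 0 without glp-1 mock replicate 2 or N2 mock replicate 1.

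**Figure D5:**
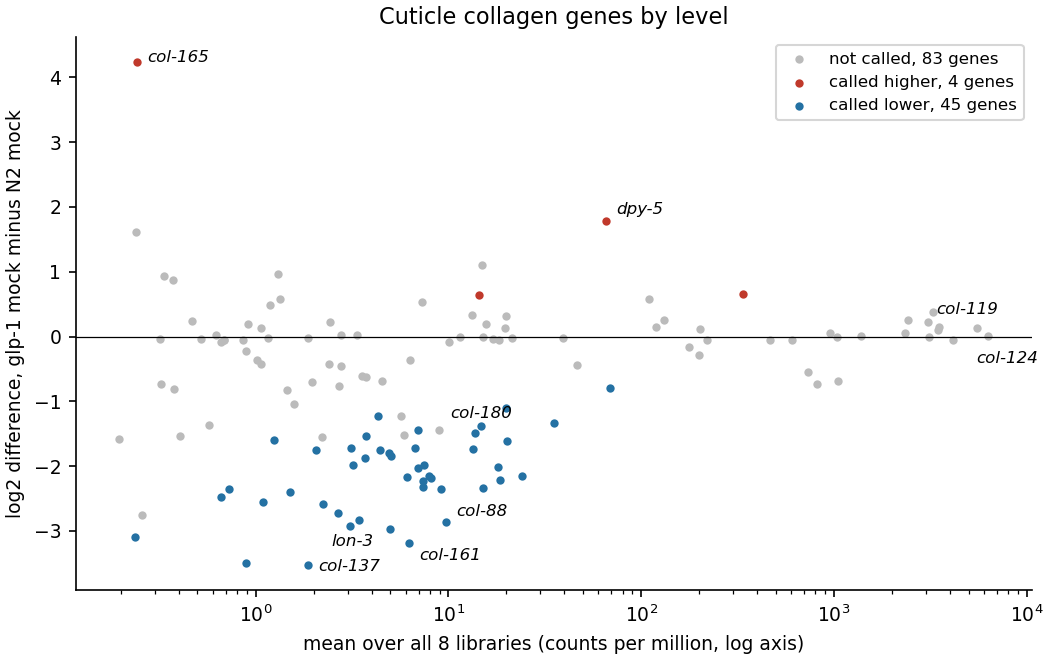
Each point is 1 of 132 tested cuticle collagen genes, with its mean over all 8 libraries in CPM on a log axis and its log2 difference, glp-1 mock minus N2 mock. The 45 genes called lower lie at or below 100 CPM, and the 26 genes above 100 CPM have a median of 0.03.

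Housekeeping lists lay slightly below 0. Called lower were 9.76% of translation factor, 12.2% of heat shock protein and 11.8% of histone modification genes, beside 3.24% of all tested genes. Among ribosomal protein genes the share was 1.23%. Translation factor genes had a median of -0.32 and 4 of 41 lower, among them eif-3.B (log2 -0.76, adjusted p = 0.0115), and heat shock protein genes a median of -0.21 and 6 of 49 lower, among them the BiP homologue gene hsp-3 (-0.58, adjusted p = 0.033). These counts were 0 or 1 without any one of the mock libraries. Of 8 genes of the cytosolic chaperonin, examined after the values were seen, 4 were lower, cct-2, cct-3, cct-4 and cct-7, with log2 values from -0.64 to -0.53. Of 51 histone modification genes 6 were lower, with the methyltransferase family gene set-26 at -0.76 (adjusted p = 0.00492), and the count was 0 without glp-1 mock replicate 1 or replicate 2 and 1 without N2 mock replicate 1. Of 81 ribosomal protein genes 1 was lower, rps-2 (log2 -0.65). Markers of intestine (median 0.00, 1 of 24 lower), body wall muscle (-0.17, 1 of 24 lower) and the somatic gonad (0.01, 1 of 28 lower) showed few calls. The call on set-26 ended without glp-1 mock replicate 1 (0.102) or replicate 2 (0.056), and that on rps-2 held only without N2 mock replicate 2 (0.0307).

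The mRNAs of factors known for the long life of worms without a germline had a median difference near 0. Of 26 tested, 3 (11.5%, beside 6.49% of all tested genes) were called higher and 0 lower, with a median of 0.02. The transcription factor gene mxl-3 had 72.3 and 72 CPM in glp-1 mock, against 31.6 and 47.5 CPM in N2 mock (log2 0.87, adjusted p = 0.00904), and the others were fat-6 and nhr-80 (log2 0.60, adjusted p = 0.0499). The central factor gene daf-16 had 55.9 and 54.3 CPM in glp-1 mock and 66 and 65.2 CPM in N2 mock (log2 -0.25, adjusted p = 0.3). Without glp-1 mock replicate 1 or replicate 2 the count of 3 was 0. Of 25 genes known to be induced by DAF-16, 5 were higher, among them sod-3 (0.98) and mtl-1 (0.95), and 2 were lower. These shares were 20 and 8%, beside 6.49 and 3.24% of all tested genes. The pair that was lower, pud-3 and pud-4, are members of one small family, among which reads may be shared. The level of pud-3 was 625 and 664 CPM in glp-1 mock, against 2003 and 2850.4 CPM in N2 mock (log2 -1.91, SE 0.28, adjusted p = 0.00145). The calls on pud-3 and pud-4 held whichever mock library was left out, while the count of 5 was 1 or 2.

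The libraries fed double-stranded RNA against rege-1 gave the same strain contrast in separate samples, with a dispersion estimate that the fit shares. There, 1619 genes (10.6%) were higher and 1155 (7.54%) lower in glp-1 than in N2. Of the 995 genes higher under mock, 975 had the same sign and 680, or 68.3%, were called higher there too, which is 42% of the higher calls under RNAi. Of the 496 lower under mock, 482 had the same sign and 335, or 67.5%, were called lower, which is 29% of the lower calls under RNAi. Genes called in opposite directions numbered 3 and 1. Without N2 rege-1 RNAi replicate 2 the RNAi contrast had 382 higher and 146 lower calls, and without glp-1 rege-1 RNAi replicate 1 it had 709 and 548, while the lower calls were 2253 without glp-1 rege-1 RNAi replicate 2. The gene acdh-1 had 1096 and 1164 CPM in glp-1 rege-1 RNAi, against 4.59 and 3.16 CPM in N2 rege-1 RNAi (log2 8.19, adjusted p = 1.73e-07). The estimated difference was smaller there for lipl-1 (log2 -0.95), asm-3 (-0.57, adjusted p = 0.0859) and cyp-34A9 (-1.56). It was close to that under mock for haf-6 (-2.70), ins-31 (3.22) and nas-24 (2.56). None of these genes was among the 4 whose strain difference was itself called as different between RNAi and mock.

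Intron counts, which can come from unspliced transcripts, were far sparser, with 684124 and 603643 per library in glp-1 mock and 490972 and 630172 in N2 mock. Some short introns had dense counts. The 239 intron bases of hsp-1 had 5382 and 4333 counts in glp-1 mock and 2502 and 6017 in N2 mock. The origin of such counts was not tested. Of 5042 genes tested, 16 (0.317%) were higher and 5 (0.0992%) lower, counts that were 6 to 12 and 1 to 6 without any one of the mock libraries. The gene acdh-1 had 50 and 50 intron counts in glp-1 mock and 0 and 0 in N2 mock, which is at least 29-fold higher against a floor of 3 counts over the N2 group. The acid phosphatase gene pho-10 was higher in introns (log2 3.13, SE 0.38, adjusted p = 8.78e-05) and in mRNA (3.18), and the ferritin gene ftn-2 was lower in introns (-1.91, adjusted p = 0.00563) as in mRNA. Of the genes called higher in mRNA, 148 were tested for introns and 129 of these had the same sign. Of those called lower, 207 were tested and 175 had the same sign. Both readouts came from the same libraries. Over the 4999 genes tested in both, the mRNA and intron differences had a Spearman correlation of 0.4.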

How the data were processed

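Total RNA of whole young adults was extracted with Trizol and ScriptSeq v2 was the library kit, per the labels' protocols. The authors deposited raw counts per gene for mRNA and for introns, and log2 values, which a check on the deposited table found equal to log2 of 8 plus the count after scaling each library to their mean total. No source used here gives the aligner, genome build, annotation, counting tool or use of strand. Mapping and the sharing of reads among similar genes can therefore affect the counts of gene families. Chromosomes were taken from the Ensembl release 115 annotation, which held 19513 of the 20182 identifiers, and no coordinates are printed, since its build may differ from that of the counts.

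Counts of all 8 libraries (26127079 to 30093967 mRNA counts each) were fitted together as 4 groups with edgeR 4.0.16 in R 4.3.3. The fit used TMM normalization, filterByExpr with a minimum count of 10, robust quasi-likelihood dispersion with 4 residual degrees of freedom among libraries, and Benjamini-Hochberg adjustment with a threshold of 0.05. Alternatives used DESeq2 1.42.0, limma 3.58.1 on the deposited log2 values, other scalings and filters, a replicate block and the loss of each library. On simulated data, the fit found 63% of genes changed by 2-fold and 91% of those changed by 4-fold, with 3.8% false calls, among 15052 genes of which 200 were changed. The simulation gave all groups the same dispersion per gene, unlike the real libraries. Between real replicates the mean chi-square per gene was 3.36 in glp-1 mock and 36.4 in N2 mock. It was 53.9 in glp-1 rege-1 RNAi and 27.4 in N2 rege-1 RNAi. The simulated rates therefore cannot give the error rate of the real contrast. Tables and plots were made with Python 3.11.15, pandas 2.3.3 and matplotlib 3.10.9.

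Genes are named by a rule: glp-1, for each direction the 12 largest changes among called genes whose libraries did not overlap and whose mean reached 5 CPM in one group, up to 4 called members of each gene list in each direction by lowest p, up to 2 defining members that did not pass, and all vitellogenins. Not all of these are printed, and pgl-1, the male neuron genes, nhr-10, pccb-1, mce-1, mmcm-1, metr-1, pod-2, fasn-1, cpt-1, srlf-18, the chaperonin genes, daf-16 and pho-10 were added after their values were seen. The members and lists were chosen with earlier results of these data known.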

Additional observations from a re-analysis of the deposited data

Results flagged for a closer look

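For 4 genes the strain difference itself differed between the rege-1 RNAi and the mock libraries, by the interaction term of the edgeR fit adjusted over all 15321 genes (4 lower, or 0.0261%, and 0 higher). Given as the difference under RNAi minus that under mock, the term was -2.49 for the lectin gene clec-125 (SE 0.25, adjusted p = 0.00769). Its level was 24.4 and 21.5 CPM in glp-1 rege-1 RNAi, against 13.2 and 13.5 CPM in N2 rege-1 RNAi, and 15.9 and 17.9 CPM in glp-1 mock, against 1.75 and 1.75 CPM in N2 mock. The term was -3.29 for clec-72 (SE 0.37, adjusted p = 0.0162), with strain differences of -1.06 under RNAi and 2.23 under mock. For the carnitine palmitoyltransferase gene cpt-3 it was -2.34 (SE 0.29, adjusted p = 0.0248), with -0.46 under RNAi and 1.87 under mock. For the P450 gene cyp-13A12 it was -3.55 (SE 0.48, adjusted p = 0.0429), with -1.77 under RNAi and 1.78 under mock. In each of these genes N2 was higher under RNAi than under mock in both libraries. The number of such genes was 1 without glp-1 mock replicate 1 and 0 without any one of the other 3 mock libraries.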

How the results depend on the processing

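The main counts were 995 genes higher and 496 lower in glp-1 mock. They were 969 and 533 with DESeq2 size factors in edgeR, 958 and 621 with DESeq2, and 1029 and 474 with the replicate number as a block. The numbers were not taken to pair the libraries, since the deviations of same-numbered libraries correlated at 0.02 between the mock groups. With limma 1521 were higher and 268 lower, against a 2-fold change 250 and 41, and with library size alone 1478 and 269. The mock groups fitted alone, without the spread of the RNAi libraries, gave 1465 higher and 982 lower. Scaling to markers of muscle, pharynx, neurons and hypodermis gave 845 and 488. Removal of the trend with coding length gave 1022 and 701. Without one mock library the counts were 380 to 502 higher and 74 to 297 lower. For the RNAi contrast, library size alone gave 2610 higher and 548 lower, and loss of a library 382 to 1756 and 146 to 2253. The strain difference under RNAi minus that under mock had 0 higher and 4 lower calls. It had 1 higher with DESeq2 size factors in edgeR, with library size alone or with the replicate block, 2 without a filter and 11 with DESeq2; 9 were lower without a filter, 7 with the block and 19 with DESeq2. Loss of a library gave 0 to 28 higher and 0 to 377 lower. Introns had 16 higher and 5 lower. These were 8 and 1 with library size alone, 31 and 12 without a filter and 9 and 2 with DESeq2, and 3 were lower with DESeq2 size factors in edgeR. Loss of a library gave 6 to 12 higher and 1 to 6 lower. The cause of these shifts was not tested. Named genes near 0 could change sign, as the glp-1 mock levels of vit-6 lay between those of the 2 N2 mock libraries. With 2 libraries a group, and with 464385 to 684124 intron counts a library, small changes and intron changes were often not detectable.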
